A study of Mus musculus with 6 samples.

Results

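Aminoacyl-tRNA synthetases were examined as a set of 36 genes, chosen by symbol from the 23453 gene rows of a table of exon read counts. Of these, 20 encode cytosolic or shared enzymes and 16, whose symbols end in 2, encode mitochondrial enzymes. All 36 passed the filter on low counts and were among the 12423 genes tested. RNA was sequenced from splenocyte cultures of OT1 mice on a C57BL/6 background, labelled wild type; the OT1 transgene gives T cells a receptor that recognises OVA peptide. Cultures had OVA peptide for 48 h and then TCM (3 libraries) or FCM (3 libraries, titled vehicle) for 8 h, and the labels name the cells as cytotoxic T lymphocytes. FCM and TCM are not expanded in the labels, which also do not say whether the cultures were sorted, or whether libraries of a group came from different animals or cultures. The p-values thus rest on variation among the libraries sequenced, and that variation may be technical.

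Each synthetase attaches a given amino acid to its tRNA, the step that sets the genetic code and feeds the ribosome. Cytosolic and mitochondrial protein synthesis use separate enzymes for most amino acids. Gars and Kars supply both compartments from a single gene, and mitochondria make glutaminyl-tRNA by an indirect route without a dedicated synthetase. When amino acids run short or the endoplasmic reticulum is stressed, the kinase GCN2 or PERK phosphorylates eIF2, translation of the transcription factor ATF4 rises, and ATF4 induces many cytosolic synthetase genes. Activated T cells are known to raise synthetase and amino acid transporter genes as they grow.

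The direction of every result depends on which of the deposited tables is titled correctly. When columns were matched by value, 6 of 6 normalized columns were proportional to a count column titled as the opposite group, at an identical replicate number, and 0 to the column sharing their title. The values below follow the titles of the count table, and under the titles of the normalized table each higher becomes lower and each lower becomes higher. Library totals were 17166687 to 21197117 counts in TCM and 18729982 to 25789381 in FCM. Replicate 1 of each group stood apart from replicates 2 and 3, with a mean chi-square per gene of 61.7 to 108 in pairs that held it and 5.09 to 7.29 in pairs that did not. Of the 12423 genes tested, 58.8% passed an adjusted p of 0.05, with 30.0% lower and 28.8% higher in TCM. The median log2 fold change of all genes tested was -0.02.

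Many genes that mark other splenocytes differed between the groups in the same libraries, where 30.0% of all genes tested fell and 28.8% rose. Neutrophil markers were lower in TCM in 9 of 9 tested genes, with a summed level of 1526 to 2622 CPM (counts scaled to library size) in TCM and 8669 to 13290 CPM in FCM. B cell markers fell in 5 of 7 genes and rose in 0, summing to 905 to 1111 CPM in TCM and 1647 to 2000 CPM in FCM. Macrophage and monocyte markers fell in 4 of 7 genes and rose in 1 (Cd14), and Cd68 and Adgre1 did not pass. They summed to 163 to 206 CPM in TCM and 624 to 663 CPM in FCM. Most of the FCM sum was Lyz2, at 34.8, 32.7 and 30.6 CPM in TCM and 393, 447.5 and 402 CPM in FCM. Erythroid markers fell in 4 of 4 tested genes and summed to 8.78 to 17.1 CPM in TCM against 34.1 to 58.4 CPM in FCM, and Hba-a1 and Hba-a2 had 0 counts in TCM, as Hba-a2 did in FCM. Dendritic cell markers fell in 2 of 4 tested genes, at 14.2 to 16.2 CPM in TCM and 26.2 to 28.4 CPM in FCM, and Xcr1 and Cd209a had 0 counts in TCM, as Cd209a did in FCM. Of 7 T cell markers tested, Cd8a fell, Cd3d and Thy1 rose and Cd3e, Cd3g, Cd8b1 and Cd2 did not pass. The share of T cell markers that rose is near that of all genes tested. The summed level of the 7 was 1422 to 1738 CPM in TCM and 834 to 1008 CPM in FCM. Most of that difference was Thy1, at 812, 937 and 1019 CPM in TCM and 277, 362 and 368 CPM in FCM. In bulk RNA, fewer cells of a type and less RNA per cell cannot be told apart, and the part of these cells in the synthetase results was not tested.

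Transcripts of most cytosolic synthetases were lower in TCM. Of the 20 genes, 15 fell, 1 rose (Dars) and 4 did not pass (Kars, Qars, Farsa and Farsb), where 30.0% of all genes tested fell and 28.8% rose. The median log2 fold change was -1.06, against -0.02 over all genes tested. A fall of at least 2-fold was seen in 11 of them, compared with 10.5% of all genes tested. TCM and FCM libraries were fully separate in 16 lower and 2 higher members, whereas 64.2% of all genes tested were separate and 33.6% were separate and lower. Summed over the 20 genes, the level was 1438, 1306 and 1367 CPM in TCM replicates 1 to 3 and 2654, 2630 and 2557 CPM in FCM replicates 1 to 3.

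**Figure D1:**
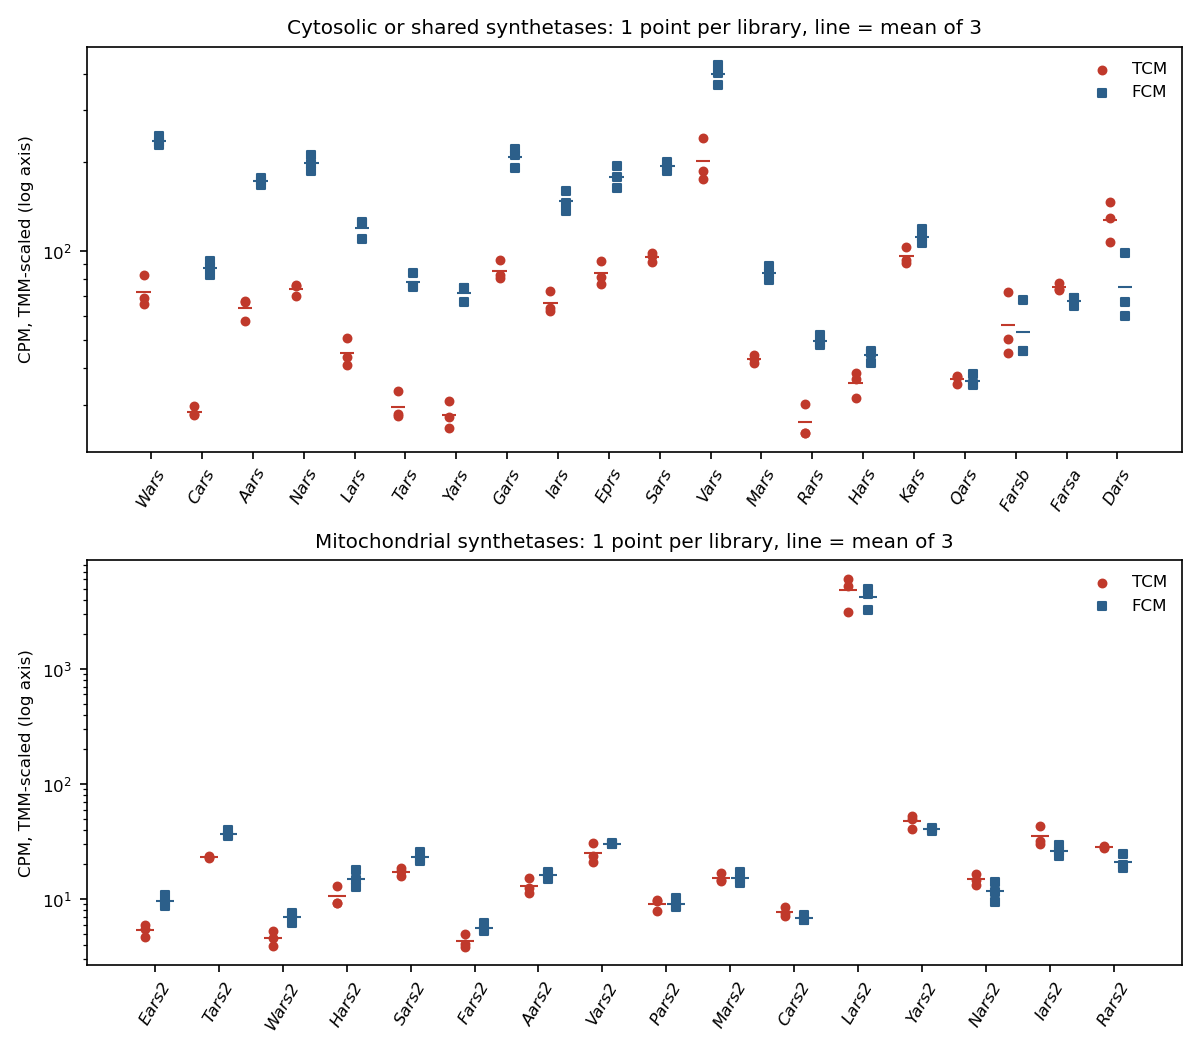
Level of each synthetase gene by library, in TMM-scaled CPM on a log axis, with cytosolic or shared enzymes above and mitochondrial enzymes below. Each point is a library, TCM circles stand left of FCM squares, and lines are means of 3. The groups separate in most cytosolic genes, as in Wars at 66.1 to 82.5 CPM in TCM and 228 to 246 CPM in FCM. They overlap in 9 of 16 mitochondrial genes, where 64.2% of all genes tested were separate.

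Among enzymes that work outside the multisynthetase complex, 10 of 12 fell, 0 rose and 2 did not pass, with a median log2 fold change of -1.33. Over all genes tested, 30.0% fell and 28.8% rose. Wars (GRCm38 chr12:108860030-108894174, minus strand), which charges tryptophan and is also known as an interferon-gamma-inducible gene, had 82.5, 69.2 and 66.1 CPM in TCM and 246, 228 and 234.5 CPM in FCM. Its log2 fold change was -1.70 ± 0.14 (SE; adjusted p = 1.8e-05 in edgeR), the lowest of the 36. Cars (chr7:143557230-143600090, minus strand), which charges cysteine, had 28.0, 27.6 and 29.8 CPM in TCM and 87.8, 92.5 and 82.6 CPM in FCM, a log2 fold change of -1.62 ± 0.11 (adjusted p = 6.92e-06 in edgeR). For both genes every TCM library lay well below every FCM library.

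Aars, the alanine enzyme, had 66.8, 58.0 and 67.7 CPM in TCM and 167.5, 173 and 177 CPM in FCM. Nars, the asparagine enzyme, had 76.3, 70.0 and 75.7 CPM in TCM and 211, 197.5 and 187 CPM in FCM. Exons of Aars share 1326 bases with Exosc6 on the same strand, which leaves its count uncertain. Aars and Nars lay at log2 fold changes of -1.43 ± 0.13 and -1.42 ± 0.13 with no overlap between the groups. Tars, for threonine, had 27.8, 27.4 and 33.4 CPM in TCM and 75.2, 83.9 and 75.8 CPM in FCM. Yars, for tyrosine, had 25.0, 27.2 and 30.8 CPM in TCM and 67.3, 74.7 and 74.6 CPM in FCM. They changed by -1.40 ± 0.13 and -1.39 ± 0.12 on the log2 scale, close to Aars and Nars. Adjusted p-values in edgeR were between 2.79e-05 and 2.96e-05 for Aars, Nars, Tars and Yars.

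Gars, which supplies glycyl-tRNA to both compartments, had 80.6, 83.1 and 93.3 CPM in TCM and 191.5, 222 and 212 CPM in FCM, a log2 fold change of -1.28 ± 0.14. Sars, for serine, had 91.9, 96.1 and 98.6 CPM in TCM and 187, 201 and 192 CPM in FCM, a change of -1.02 ± 0.12. Vars, for valine, had 241, 187 and 175 CPM in TCM and 426, 367 and 402 CPM in FCM (-0.99 ± 0.17). In all 3 genes the groups did not overlap, and within TCM the Vars level of replicate 1 was 1.33 times the mean of the other replicates. Adjusted p-values in edgeR were 7.08e-05 for Gars, 0.000156 for Sars and 0.00104 for Vars.

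Hars, for histidine, had 38.5, 31.8 and 36.6 CPM in TCM and 45.0, 45.8 and 41.7 CPM in FCM. Its change of -0.31 ± 0.12 passed narrowly (adjusted p = 0.0484 in edgeR) and missed the threshold in 10 of 16 alternative settings, at adjusted p-values up to 0.192. It missed without TCM replicate 2 or 3 and without any of the FCM replicates (0.0799 to 0.192). Farsa and Farsb encode the alpha and beta subunits of the cytosolic phenylalanine enzyme, which works as a tetramer. Farsa had 73.4, 74.4 and 77.6 CPM in TCM and 65.0, 69.4 and 68.9 CPM in FCM, a difference of 0.15 ± 0.11 that did not pass (adjusted p = 0.274 in edgeR). Farsb had 72.2, 50.4 and 45.1 CPM in TCM and 68.1, 45.6 and 45.7 CPM in FCM, a difference of 0.08 ± 0.22 (adjusted p = 0.78 in edgeR). The Farsb level went with the replicate number, and replicate 1 was 1.51 times the mean of the other replicates in TCM and 1.49 times in FCM. Per transcript length, the Farsa to Farsb ratio was 1.13, 1.65 and 1.92 in TCM and 1.07, 1.70 and 1.68 in FCM.

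The multisynthetase complex of mammalian cells joins 8 of these gene products, among them the bifunctional glutamate and proline enzyme Eprs, around the scaffold proteins encoded by Aimp1, Aimp2 and Eef1e1. Of the 8, 5 fell, 1 rose and 2 did not pass, where 30.0% of all genes tested fell and 28.8% rose. The median log2 fold change of the 8 was -0.94. Lars, for leucine, had 43.5, 41.1 and 50.6 CPM in TCM and 125, 125 and 109 CPM in FCM, a change of -1.41 ± 0.13. Iars, for isoleucine, had 62.6, 63.8 and 73.3 CPM in TCM and 137, 160.2 and 145 CPM in FCM, a change of -1.15 ± 0.13. Both sets of libraries stood clear of each other, with adjusted p-values in edgeR of 4.01e-05 for Lars and 0.000127 for Iars.

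Eprs had 81.4, 77.3 and 92.7 CPM in TCM and 178, 195 and 163.5 CPM in FCM (-1.09 ± 0.14, adjusted p = 0.000207 in edgeR). Mars, for methionine, had 44.2, 41.7 and 43.1 CPM in TCM and 88.5, 84.4 and 79.8 CPM in FCM (-0.97 ± 0.11, adjusted p = 0.000121 in edgeR). Rars, for arginine, had 24.2, 24.0 and 30.3 CPM in TCM and 48.0, 51.7 and 48.5 CPM in FCM (-0.92 ± 0.13, adjusted p = 0.000352 in edgeR). The groups did not overlap in any of these 3 genes. Exons of Mars overlap those of Ddit3, which lies on the opposite strand, by 68 bases, and the strand setting of the counting is not given in the sources used here.

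Kars and Qars did not pass the test, and Dars rose. Kars, the lysine enzyme that serves both compartments, had 93.3, 91.2 and 103 CPM in TCM and 106, 118 and 111 CPM in FCM, a difference of -0.22 ± 0.12 (adjusted p = 0.144 in edgeR). Qars, for glutamine, had 37.6, 35.3 and 37.3 CPM in TCM and 35.4, 35.0 and 38.3 CPM in FCM, a difference of 0.02 ± 0.11 (adjusted p = 0.883 in edgeR). The Qars libraries of the groups interleaved, whereas those of Kars did not overlap. Kars passed as lower in 4 of 16 alternatives: library totals alone (-0.44, adjusted p = 0.0453 in edgeR), the length trend removed without (-0.34, 0.0182) or with the replicate block (0.00123), and without replicate 1 of both groups (0.0108). Dars (chr1:128363707-128417368, minus strand), the aspartate enzyme, was higher in TCM, at 146, 129 and 107 CPM, than in FCM, at 98.5, 60.3 and 67.2 CPM. Its change of 0.76 ± 0.20 passed (adjusted p = 0.0109 in edgeR) and did not pass with library totals as the sole scaling (0.55, adjusted p = 0.118). Replicate 1 held the highest Dars level of each group. The scaffold genes did not pass: Aimp1 differed by -0.10 ± 0.14, Aimp2 by 0.09 ± 0.11 and Eef1e1 by 0.49 ± 0.22 on the log2 scale (adjusted p from 0.089 to 0.553 in edgeR).

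**Figure D2:**
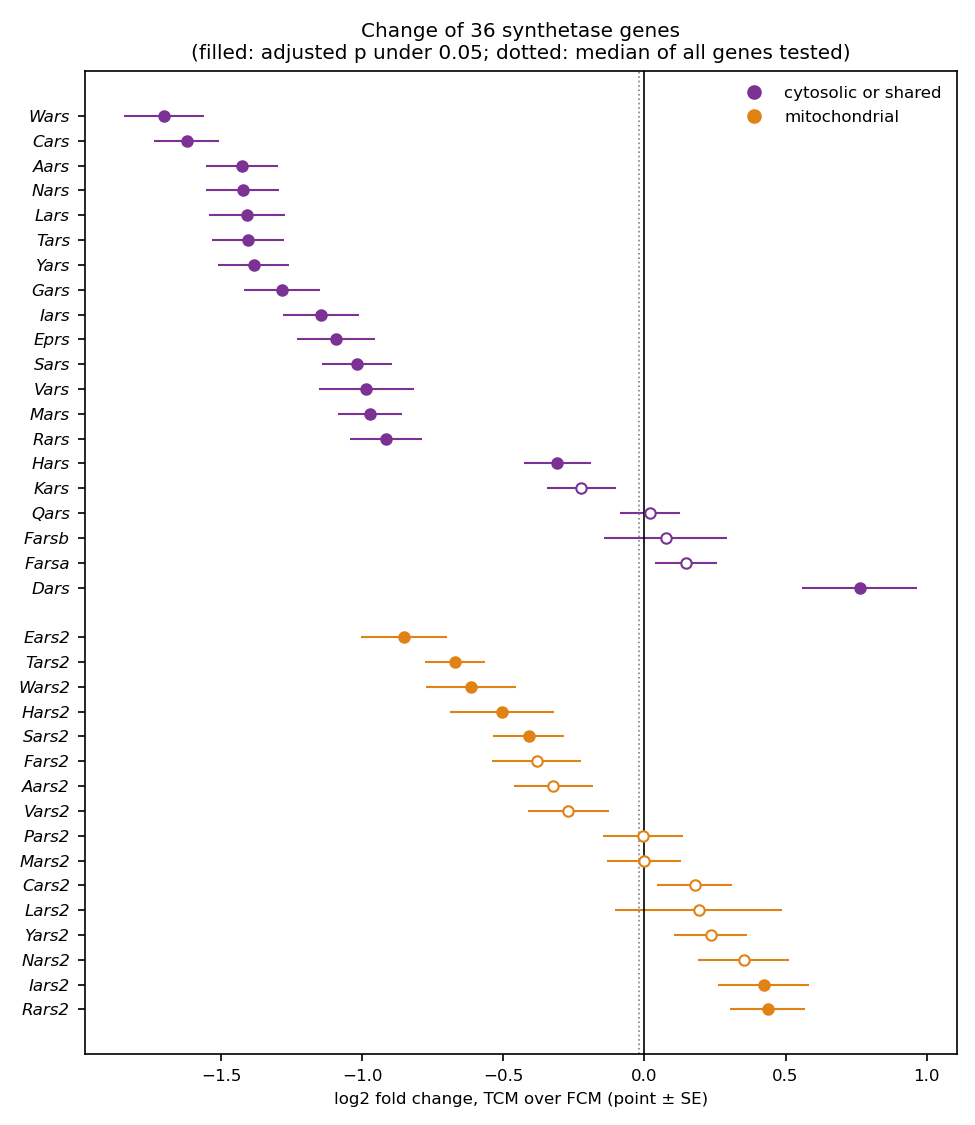
Log2 fold change of TCM over FCM with its SE for the 36 synthetase genes, filled where the adjusted p was under 0.05; the dotted line is the median of all genes tested. Cytosolic members range from -1.70 (Wars) to 0.76 (Dars) and mitochondrial members from -0.85 (Ears2) to 0.44 (Rars2), by the titles of the count table.

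Mitochondrial synthetases changed in both directions and none reached 2-fold, where 10.5% of all genes tested fell at least 2-fold. Of 16 genes, 5 fell (Ears2, Tars2, Wars2, Hars2 and Sars2), 2 rose (Rars2 and Iars2) and 9 did not pass. Over all genes tested, 58.8% passed, with 30.0% lower and 28.8% higher. The share that fell is near that of all genes, so the count of lower genes is not a result about this list. The median log2 fold change of the mitochondrial genes was -0.14, and -0.27 with Lars2 left out. With the replicate number as a block (replicate block), 8 fell and 4 rose: Aars2 (-0.33), Fars2 (-0.39) and Vars2 (-0.28) joined the genes that fell, and Nars2 (0.36) and Yars2 (0.23) those that rose. The counts without a single library were 3 lower and 1 higher without TCM replicate 2, and 0 higher without FCM replicate 2 or without FCM replicate 3. Without replicate 1 of both groups, 7 fell and 5 rose.

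Ears2, which loads glutamate in mitochondria and also misloads the glutamine tRNA on the indirect route, had 4.63, 5.89 and 5.51 CPM in TCM and 10.9, 9.32 and 8.65 CPM in FCM (-0.85 ± 0.15, adjusted p = 0.0014 in edgeR). Tars2, for threonine, had 23.1, 22.9 and 23.8 CPM in TCM and 35.9, 39.6 and 35.5 CPM in FCM (-0.67 ± 0.11, adjusted p = 0.000753 in edgeR). Both were called in all 16 alternative settings that keep the count table's titles. Wars2, for tryptophan, had 3.94, 4.58 and 5.28 CPM in TCM and 7.31, 7.60 and 6.24 CPM in FCM, a change of -0.62 ± 0.16 (adjusted p = 0.00919 in edgeR; 0.0593 with the length trend removed). Sars2, for serine, had 15.7, 17.5 and 18.7 CPM in TCM and 21.3, 25.6 and 22.1 CPM in FCM, a change of -0.41 ± 0.12 (adjusted p = 0.0191 in edgeR). Sars2 missed the threshold without TCM replicate 2 (adjusted p = 0.0629) and without FCM replicate 2 (0.0857).

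Hars2, for histidine, shares 195 exonic bases with Hars on the opposite strand and had 13.1, 9.30 and 9.27 CPM in TCM and 17.9, 12.6 and 14.6 CPM in FCM. The lowest FCM library lay below the highest TCM library, and the change of -0.50 ± 0.18 (adjusted p = 0.0394 in edgeR) missed the threshold in 7 of 16 alternatives. These included leaving out TCM replicate 2, TCM replicate 3, FCM replicate 1 or FCM replicate 3 (adjusted p from 0.0721 to 0.143). Rars2, for arginine, had 28.4, 28.9 and 27.9 CPM in TCM and 24.8, 18.5 and 19.6 CPM in FCM (0.44 ± 0.13, adjusted p = 0.0193 in edgeR). Iars2, for isoleucine, had 43.5, 30.4 and 32.1 CPM in TCM and 29.4, 26.2 and 23.5 CPM in FCM (0.42 ± 0.16, adjusted p = 0.0468 in edgeR). Both rises were lost with library totals as the sole scaling (0.21 for Rars2 and 0.23 for Iars2) and without FCM replicate 2 or 3 (adjusted p from 0.0773 to 0.159). Rars2 was also lost without TCM replicate 2 (0.0577) and with the length trend removed (0.112), and Iars2 without TCM replicate 1 (0.109). Exons of Iars2 share 2034 bases with Rab3gap2 on the opposite strand, so its counts are uncertain.

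The 9 mitochondrial genes that did not pass were Fars2, Aars2, Vars2, Pars2, Mars2, Cars2, Lars2, Yars2 and Nars2, with log2 differences from -0.38 (Fars2) to 0.35 (Nars2). Fars2 and Aars2, for phenylalanine and alanine, lay nearest the threshold among the lower ones (adjusted p = 0.0628 and 0.0722 in edgeR). Mars2, for methionine, differed by 0.00 ± 0.13 and has the longest transcript of the set, 11294 bases. Fold changes fell with transcript length over all genes tested, at a median of 0.48 in the group of genes with the shortest transcripts, of 5 groups of nearly equal size, and -0.35 in that with the longest. With that trend removed, Mars2 passed at 0.46 (adjusted p = 0.00469 in edgeR), while the cytosolic median was -0.94 with 16 genes lower.

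Of 17 pairs of a cytosolic and a mitochondrial enzyme for the same amino acid, 14 had the lower fold change in the cytosolic gene. Eprs enters with both Ears2 and Pars2, and Fars2 with both Farsa and Farsb, so the pairs are not independent. Lars to Lars2 is among the 14, and without it 13 of 16 pairs had the lower fold change in the cytosolic gene and 12 had a lower ratio without overlap. The Lars2 row moved with ribosomal RNA counts and is not read as expression here. The log2 ratio of the cytosolic to the mitochondrial gene within each library was lower in TCM without overlap in 13 pairs. It was higher without overlap in 1 (Farsa to Fars2), and overlapped in 3 (Eprs to Ears2, Hars to Hars2 and Farsb to Fars2). How often ratios of other gene pairs separate the groups was not tested. Of single genes tested, 64.2% were separate and 33.6% were separate and lower. The smallest p that an exact permutation test of 3 against 3 libraries allows is 0.1, and all 14 pairs without overlap were at that value.

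The ratios for cysteine and asparagine differed most, by amounts within each other's SE. The SE ranges for tyrosine and isoleucine overlapped theirs, so the 2 are not set apart. The log2 ratio of Cars to Cars2 was 1.98, 1.88 and 1.81 in TCM and 3.75, 3.82 and 3.49 in FCM, a difference of -1.80 ± 0.11 (SE, n = 3 each, exact permutation p = 0.1). For asparagine, the log2 ratio of Nars to Nars2 was 2.38, 2.39 and 2.19 in TCM and 3.92, 4.38 and 4.02 in FCM, a difference of -1.78 ± 0.15. Cars and Nars fell while Cars2 and Nars2 did not pass. For tyrosine the log2 ratio of Yars to Yars2 was -0.69, -0.97 and -0.68 in TCM and 0.70, 0.93 and 0.87 in FCM. That difference was -1.61 ± 0.115. These ratios are of CPM and not per length, so their sign does not rank the genes. Rars, which fell, and Rars2, which rose, had log2 ratios of -0.23, -0.27 and 0.12 in TCM and 0.95, 1.48 and 1.31 in FCM. Where both genes fell, as for threonine and glutamate, the ratio differed by -0.74 ± 0.08 for Tars to Tars2 and -0.24 ± 0.17 for Eprs to Ears2.

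**Figure D3:**
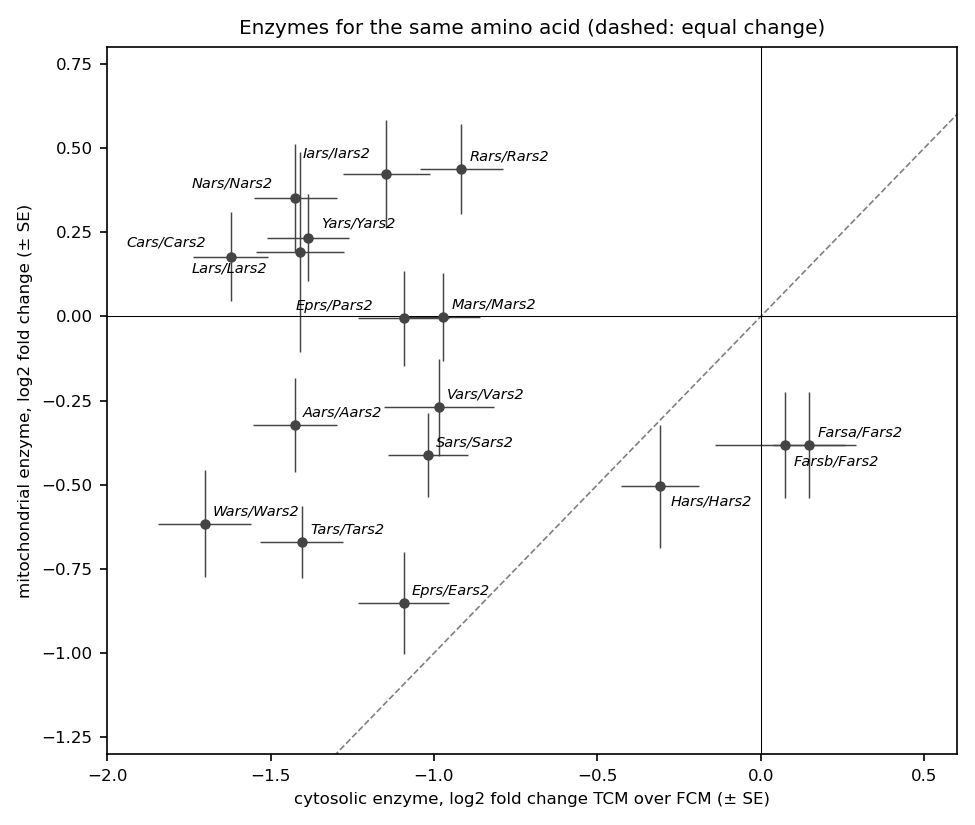
Log2 fold change of TCM over FCM of the cytosolic enzyme (x axis) and of the mitochondrial enzyme for the same amino acid (y axis), with SE, for 17 pairs. In 14 pairs the point lies above the dashed line of equal change, and Hars with Hars2 and the pairs of Fars2 lie below it.

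Sorted by the architecture of the catalytic domain, the 18 class I genes had a median log2 fold change of -0.73, with 10 lower and 2 higher, and the 17 class II genes one of -0.38, with 9 lower and 1 higher, where 30.0% of all genes tested fell and 28.8% rose. Without Lars2, the 17 class I genes had a median of -0.85. Eprs, which holds a domain of each class, was left out of this count.

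Levels of different genes were compared as CPM per kilobase of the principal transcript, with Lars2 left out. The cytosolic members had a median of 17.5 in TCM and 31.7 in FCM, and the mitochondrial members a median of 4.05 in TCM and 4.71 in FCM. In TCM the order was led by Dars at 58.7 ± 8.97 CPM per kilobase (SD, n = 3), Vars at 48.6 ± 8.53 and Kars at 47.7 ± 3.05, which lie within each other's spread. In FCM it was led by Wars at 129.5 ± 4.96, Vars at 96.3 ± 7.22 and Gars at 87.7 ± 6.59, of which the last pair lie within their spread. Wars stood in place 5 in TCM and place 1 in FCM, while Dars stood in place 1 in TCM and place 9 in FCM. The highest mitochondrial member was Yars2, at 30.3 ± 4.18 CPM per kilobase in TCM and 25.7 ± 0.685 in FCM, above several cytosolic genes. Wars2 in TCM (1.04 ± 0.152) and Mars2 in FCM (1.355 ± 0.159) were lowest.

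The row of Lars2 (chr9:123366927-123462666, plus strand), the mitochondrial leucine enzyme, stood apart from the other mitochondrial members. It had 3122, 6088 and 5236 CPM in TCM and 3230, 4508 and 4911 CPM in FCM, and the groups overlapped (0.19 ± 0.30, adjusted p = 0.597 in edgeR). The other 15 mitochondrial genes together summed to 257 to 271 CPM in TCM and 267 to 289 CPM in FCM. Lars2 counts moved with those of Rn45s, the ribosomal RNA precursor row, which took 11.6%, 18.9% and 18.0% of the counts in TCM and 11.2%, 16.0% and 16.0% in FCM. Lars2 counts equalled 2.95%, 2.79% and 2.44% of the Rn45s counts in TCM and 3.38%, 2.92% and 3.16% in FCM. Whether ribosomal RNA reads enter the Lars2 row was not tested, and its level is given here without a reading as expression.

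**Figure D4:**
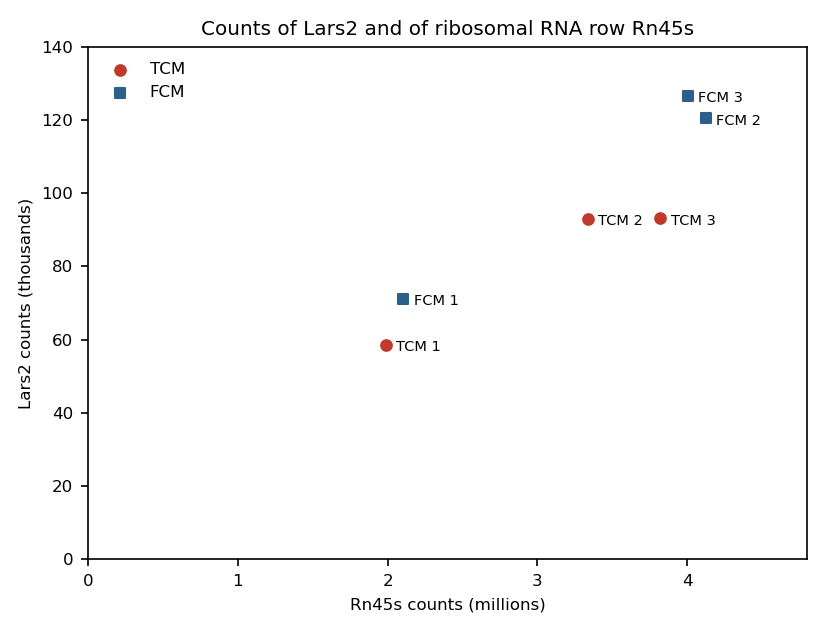
Counts of Lars2 (y axis) against counts of Rn45s (x axis) in the 6 libraries, TCM as circles and FCM as squares. Replicate 1 of both groups is lowest on both axes, and Lars2 equals 2.44% to 3.38% of Rn45s in every library.

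Many cytosolic synthetase genes are known targets of ATF4, which binds with C/EBP partners to a composite element with the core TGATGNAA, and their promoters were searched for it. The search used RefSeq promoter windows on GRCm38.p6, from 250 bases before to 50 after each gene's start, which matched 27 of the 36 members. Cars, Hars, Lars, Nars, Rars, Vars, Wars, Hars2 and Pars2 had no window. All of these but Pars2 fell, so the search covers only part of the genes that fell. On both strands the core was found in 5 of 13 cytosolic members with a window and 0 of 14 mitochondrial members. By gene, the core was found in 2.89% of the 9253 genes tested with a window. Counted by window, 3.97% of all 32851 windows held it. All 5 were among the 8 cytosolic members with a window that fell, and 0 of the 5 that did not fall held it. Of all genes tested with a window, the core was found in 4.13% of those that fell in TCM and 1.95% of those that rose. A match describes these letters and not a bound site.

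Among the listed stress response genes, 4 of 17 with a window held the core: Asns, Trib3, Chac1 and Nupr1. Of these, Nupr1 did not pass (-0.11 ± 0.14, adjusted p = 0.504 in edgeR) and the others fell. A match of each synthetase gene is shown because these are 5 of the synthetase genes that fell, beside that of Asns, the asparagine synthetase gene. Each line is read 5′ to 3′ on the strand named below, with the core in capitals and its flanks in lower case.
Aars: tcagagcgctcTGATGAAAagtgacccgct
Gars: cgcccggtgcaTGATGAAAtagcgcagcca
Iars: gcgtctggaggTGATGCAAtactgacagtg
Tars: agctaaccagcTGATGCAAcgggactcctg
Yars: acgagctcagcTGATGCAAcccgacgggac
Asns: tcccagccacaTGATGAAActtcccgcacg

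On GRCm38.p6 these windows are chr8:111033840-111033869 (minus strand) for Aars, chr6:55037960-55037989 (minus strand) for Gars and chr13:49682126-49682155 (minus strand) for Iars. They are chr15:11399655-11399684 (plus strand) for Tars, chr4:129189895-129189924 (plus strand) for Yars and chr6:7693214-7693243 (minus strand) for Asns. Counted along each gene's own strand, the upstream end of the core lay at base 10 of the transcript in Aars, 30 bases before the start in Gars and 15 bases before it in Tars. It lay at base 8 of the transcript in Iars, at base 4 in Yars and 23 bases before the start in Asns. The core reads TGATGCAA in Iars, Tars and Yars, and TGATGAAA in Aars, Gars and Asns. The log2 fold changes of the 5 synthetase genes ran from -1.43 (Aars) to -1.15 (Iars), and Asns changed by -1.98 ± 0.12. Eprs, Sars and Mars also fell and held no core in their windows.

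Genes of the stress response that drives synthetase genes, which include regulators and others such as Asns, changed in both directions. Of 18 genes, 8 fell, 2 rose and 8 did not pass, with a median log2 fold change of -0.34. The share called is near the 58.8% of all genes tested, so the total called is not a result about this list. By direction, a larger share of the list fell, and a smaller share rose, than the 30.0% and 28.8% of all genes tested. Atf4 itself had 634, 716 and 713 CPM in TCM and 813, 925 and 920 CPM in FCM. The Atf4 groups did not overlap, and the difference of -0.37 ± 0.16 did not pass (adjusted p = 0.0717 in edgeR). Asns and Trib3 were among the genes of the list that fell, Asns at 11.2, 13.1 and 12.0 CPM in TCM and 47.6, 50.3 and 45.8 CPM in FCM. Trib3, a pseudokinase gene, changed by -2.12 ± 0.16. Ddit4, an inhibitor of mTORC1 signalling, rose by 3.03 ± 0.26, with an adjusted p of 2.25e-05 in edgeR. The other gene of the list that rose was Sesn2 (0.47 ± 0.14, adjusted p = 0.0177 in edgeR). Nupr1, Cebpb and Ppp1r15a were among those that did not pass.

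Of 12 genes that respond to interferon gamma, as Wars does, 8 fell, 1 rose (Ido1) and 3 did not pass, where 30.0% of all genes tested fell and 28.8% rose. Their median log2 fold change was -1.49. Ifng itself was higher, at 1579, 2103 and 2354 CPM in TCM and 812, 747 and 869 CPM in FCM (1.31 ± 0.20, adjusted p = 0.000636 in edgeR). Irf1, the interferon regulatory factor gene, had 108, 108 and 124 CPM in TCM and 275, 338 and 310.5 CPM in FCM, a change of -1.44 ± 0.15. Gbp3, Cxcl9 and Gbp2 had the smallest p-values of the list and changed by -1.95, -2.51 and -2.09. Wars and Irf1 were both lower, and Ifng higher, in the TCM libraries.

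Genes that act around the synthetases moved in both directions, as did all genes tested, of which 30.0% fell and 28.8% rose. Of 5 editing and synthetase-like genes, 4 rose and 0 fell, with a median of 0.64; Dtd2, which removes wrongly attached amino acids from tRNA, rose by 1.36 ± 0.15, followed by Prorsd1 (0.74), and Aarsd1 changed by 0.39. Of 8 genes of translation elongation and its control, 3 rose and 2 fell, near the shares of all genes tested. Eef1a1, whose product delivers charged tRNA to the ribosome, changed by -0.86, and Eef1b2, an exchange factor subunit for it, by 1.05. Eef2k, the kinase that inhibits the elongation factor eEF2, changed by -0.63. Of 13 genes of the mitochondrial glutaminyl route and mitochondrial translation, 3 fell, 1 rose and 9 did not pass, with a median of -0.08. Both counts lie near or below the shares of all genes tested. Tsfm, an elongation factor gene, rose by 0.73, and Gfm2 and Mrrf, which act in ribosome recycling, changed by -0.49 and -0.59. Gatc and Qrsl1, subunits of the amidotransferase that completes the indirect route, differed by 0.28 ± 0.12 and -0.08 ± 0.14 and did not pass (adjusted p = 0.0734 and 0.654 in edgeR).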

How the data were processed

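RNA of 6 splenocyte libraries (3 TCM, 3 FCM) was analysed. A deposited table of the series gives raw exon read counts by gene symbol. A deposited normalized table holds a signal: each column is a count column scaled by a constant of that library, as its values show. The submitters' processing notes name STAR 2.7.2d, DESeq2 1.28.1 and mm10, without roles; no counter, annotation or strand setting is stated in the sources used here. In GENCODE M21 on GRCm38, 9 of the 36 members share exonic bases with another counted gene, and without a known strand setting such reads cannot be told apart. Columns were matched to samples through their titles; 92 spike-in rows held 0 counts and were not used. From the normalized values, whole reads were recovered for 100% of non-zero values (tolerance 0.1 reads). Under that table's titles edgeR on these reads called 3726 genes higher and 3584 lower.

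After filterByExpr and TMM scaling, counts went through the quasi-likelihood test of edgeR 4.0.16 in R 4.3.3 without covariates, with Benjamini-Hochberg adjustment over 12423 genes. CPM are TMM-scaled. The SE is the log2 fold change divided by the root of F. Log2 ratios between genes used an exact two-sided permutation test. A single count was worth 0.0388 to 0.0583 CPM before TMM, which sets the precision of low values. The fitting was tested on simulated data. Deviations of same-numbered libraries from their group means correlated at 0.60, 0.15 and 0.36, all above 0.1, which was taken to pair them for the replicate block. This is a hint from the data, since the labels name no shared batch or animal, and libraries 2 and 3 correlated more with another number (up to 0.27 and 0.42). Alternatives covered scaling, filters, DESeq2 1.42.0, the block, length and GC trends, omitted libraries and thresholds. GC content was taken from transcript sequences. The text names all 36 members, all scaffold genes, Atf4, Asns, Ifng and Irf1, and up to 3 genes with the smallest p in each other pathway list. The cell type markers, Ido1, Chac1, Nupr1, Sesn2, Cebpb, Ppp1r15a, Gatc and Qrsl1 were named after their values were seen. Members, lists and the motif were chosen with earlier results of these data known. Of the promoter matches, the nearest to the start is shown for each gene; a further match is not reported here.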

Additional observations from a re-analysis of the deposited data

How the results depend on the processing

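Of the 23 members called, 16 kept call and direction in all 16 alternative settings under the count table's titles: the 14 cytosolic genes that fell other than Hars, with Ears2 and Tars2. Cytosolic genes that fell numbered 14 to 16 in these settings. With library totals as the sole scaling, 0 cytosolic and 0 mitochondrial genes rose, 2364 of all genes tested rose, and the median log2 fold changes were -1.27 (cytosolic) and -0.33 (mitochondrial) beside -0.23 for all genes tested. With the length trend removed, without or with the replicate block, the cytosolic median was -0.94. The replicate block gave 8 mitochondrial genes lower and 4 higher, and 15 cytosolic genes lower and 1 higher. With the length trend removed as well, 6 mitochondrial genes were lower and 5 higher, and 16 cytosolic genes lower and 1 higher. Leaving out a single library gave 3 to 7 mitochondrial genes lower and 0 to 3 higher, and leaving out replicate 1 of both groups gave 5 higher. An adjusted p under 0.01 left 0 cytosolic genes higher, and 3 mitochondrial genes lower and 0 higher; a fold of at least 1.5 left 3 lower and 0 higher. The cause of these shifts was not tested.

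Under the normalized table's titles, 1 cytosolic gene was lower and 15 higher (median 1.06), and 2 mitochondrial genes were lower and 5 higher (median 0.14). The log2 fold changes of all 23 called members reversed: Wars 1.70, Cars 1.62, Aars 1.43, Nars 1.42, Lars 1.41, Tars 1.40, Yars 1.39, Gars 1.285, Iars 1.15, Eprs 1.09, Sars 1.02, Vars 0.99, Mars 0.97, Rars 0.92, Hars 0.31, Dars -0.76, Ears2 0.85, Tars2 0.67, Wars2 0.62, Hars2 0.50, Sars2 0.41, Iars2 -0.42 and Rars2 -0.44. Which table is titled correctly could not be settled from the files.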
